A study of Mus musculus with 2 samples.

Results

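The nuclear factor I genes Nfia, Nfib, Nfic and Nfix, 4 of the 21755 protein-coding genes on chromosomes 1 to 19 and X, were examined for open chromatin. Everything called in each gene body and the 50 kb on each side was taken as belonging to that gene's locus, whichever gene it may act on. DNase-seq had been done on 2 libraries from a layer of the hippocampus that the labels do not name. Both came from B6CASTF1/J mice, the first-generation cross of C57BL/6 with the wild-derived CAST strain, 25 days old and labelled male, and together they form 1 group with no control. The labels call them biological replicates 1 and 2 but give them a shared donor entry, so their spread could be technical. Peaks, footprints and the bases with an FDR under 0.05 were listed for each library by itself.

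DNase I cuts open chromatin, so its cuts pile up as peaks at promoters and other regulatory regions, and a short stretch of protected bases among the cuts is called a footprint. NFI proteins are DNA-binding factors that pair up and bind TGGC and GCCA held 5 bases apart, or, less tightly, a single TTGGC arm of that site. In the developing brain Nfia and Nfib promote the switch of neural progenitors to making glia and the formation of the hippocampus, Nfix limits progenitor self-renewal and acts on hippocampal stem cells, and Nfic is best known for its part in tooth root growth.

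Replicate 1 held 93545 peaks and 223251 footprints and replicate 2 held 79144 peaks and 170016 footprints. The peak value used below is the authors' signal at the peak. Its scaling is not given, and the number of cuts behind a value is therefore unknown. Peaks, regions and promoters are called strong or weak below by the peak value alone. Replicate 2 had 3 peaks at Xist, the highest at 1.01, replicate 1 had none, and chromosome Y held 40 peaks in replicate 1 and 39 in replicate 2. Xist is transcribed from the inactive X chromosome of females, so the Xist peaks go against the male label of replicate 2. The chromosome Y peaks, alike in number in both libraries, go with that label. Replicate 2 is named, where its direction against replicate 1 matters, as the library labelled male replicate 2. Main promoters had a peak in both libraries for 6 of 7 neuronal markers, 3 of 3 of dentate granule cells, 1 of 2 of CA1, 1 of 4 of astrocytes, 1 of 5 of oligodendrocytes and their precursors, 0 of 3 of microglia, 0 of 3 of endothelial and mural cells, 2 of 2 of meningeal fibroblasts, 1 of 1 of ependymal cells and 0 of 3 of other tissues. Over all protein-coding genes the share was 59.0%, and lists of 1 to 7 genes allow only a coarse comparison with it. In mixed tissue a weak peak in all cells and a strong peak in few cells cannot be told apart.

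All 4 NFI genes had a peak within 1 kb of their main transcription start site (TSS) in both libraries, where 59.0% of all protein-coding genes did. Starts no more than 1 kb apart were joined into groups, and the main group holds the start of the transcript ranked first by GENCODE's APPRIS tag, the longest coding one where tied. The Nfib main promoter had peak values of 2.15 in replicate 1 and 2.13 in replicate 2, or 2.14 ± 0.010 (SD, n = 2). The Nfix main promoter had 1.90 in replicate 1 and 1.53 in replicate 2 (1.71 ± 0.264), and the Nfia main promoter had 1.55 and 1.35 (1.45 ± 0.147). Nfib was thus highest in both libraries, while the ranges of Nfix and Nfia overlapped, so their order does not exceed the spread. The Nfic main promoter had the lowest value in both libraries, at 1.07 in replicate 1 and 0.715 in replicate 2 (0.891 ± 0.249). The FDR gave another order. The lowest log10 FDR in that Nfic region was -16.0 in replicate 1 and -9.74 in replicate 2. It was -6.02 and -5.80 in the Nfib region with 2.15, and -9.31 and -3.70 in the Nfix region with 1.90. In the Nfia region with 1.55 it was -4.15 and -25.4.

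None of these promoters had a high peak value for an open one. Among all genes with a main promoter peak the median value was 2.16 in replicate 1 (13381 genes) and 2.06 in replicate 2 (13133 genes). Nfib lay at percentile 49.7 in replicate 1 and 52.2 in replicate 2, at the middle of those genes. Nfix lay at percentiles 41.4 and 33.8, Nfia at 30.9 and 28.5, and Nfic at 18.3 and 11.1. A transcript of E130114P18Rik starts on the other strand inside the window of the Nfia main promoter, so a peak there cannot be given to Nfia alone.

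The Nfic promoter is shown because its peak of low value lies on a stretch rich in GGGCGG. This is the core of the box bound by SP and KLF factors, here in capitals. These are the 250 bases before the RefSeq start (GRCm38.p6, chr10:81427174-81427423, minus strand):
Nfic promoter: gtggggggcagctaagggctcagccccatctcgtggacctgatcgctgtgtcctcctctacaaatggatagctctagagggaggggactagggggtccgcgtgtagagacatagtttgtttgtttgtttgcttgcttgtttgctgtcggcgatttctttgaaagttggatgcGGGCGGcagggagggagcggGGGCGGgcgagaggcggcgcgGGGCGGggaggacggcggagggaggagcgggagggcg
It held 3 copies of GGGCGG, counted on both strands, where 32.7% of 32851 RefSeq promoters, cut to the same length, held at least 1 and 8.47% at least 3. RefSeq promoters were matched for 3 of the genes in 6 entries, 4 of them of Nfix. The only RefSeq start of Nfia in that table lay outside the 50 kb flank and had no peak within 1 kb in either library.

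Away from the main promoters, 7 of the 12 alternative start groups had a peak in both libraries, where 13.2% of 26583 alternative start groups of all protein-coding genes did. Peaks counted here when each library had one in the window, and they overlapped each other in 6 of the 7, Nfic-207 being the exception. In Nfia all 3 alternative starts had higher values than the main one. Nfia-208, whose start lies 4874 bases upstream of the main start, had 3.11 in replicate 1 and 2.51 in replicate 2. Nfia-206, a transcript without a coding sequence that starts deep in the gene, had 2.37 in replicate 1 and 1.68 in replicate 2. Nfia-207 had 1.77 in replicate 1 and 1.39 in replicate 2. Nfia-208 and Nfia-206 exceeded the main promoter of the gene in both libraries, with ranges that did not overlap it, and Nfia-207 did so in each library while its range overlapped.

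In Nfic the nearest upstream start was also higher. Nfic-204, which starts 3832 bases upstream of the main start, had 1.83 in replicate 1 and 1.77 in replicate 2, above the main promoter in both. Nfic-207, the farthest upstream start, had only 0.375 and 0.413. No peak was called in either library at Nfic-205 or Nfic-206.

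The start shared by Nfix-205, Nfix-201 and Nfix-202, which lies 26948 bases upstream of the main start, had 1.71 in replicate 1 and 1.26 in replicate 2, below the main promoter in each library but with an overlapping range. Nfib-211 had 1.77 and 1.09, below the Nfib main promoter in both. Nfix-208 and Nfix-207, which share a start near the end of the gene, had a peak of 1.34 in replicate 1, while the library labelled male replicate 2 had no peak there. No peak was called at Nfix-206 or at Nfib-212, the distant upstream start of Nfib.

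**Figure D1:**
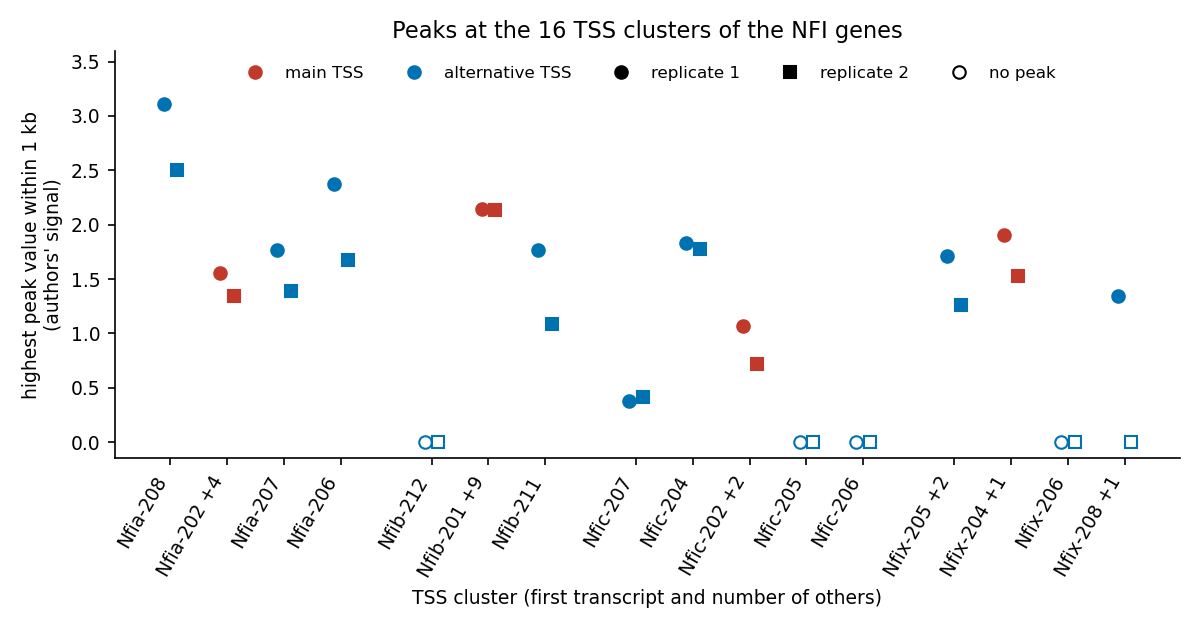
Highest peak value (authors' signal) within 1 kb of each of the 16 start groups of the NFI genes, with replicate 1 as circles, replicate 2 as squares, main starts in red, alternative starts in blue and open symbols at 0 where no peak was called. All 4 main starts and 7 of 12 alternative ones have a peak in both libraries, and the highest value is that of Nfia-208.

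The 4 loci held 237 open regions, peaks of both libraries being merged where they overlapped, of which 107 had a peak in both libraries. That is 45.1% of them, against 46.6% of all 109349 regions. The 104 regions found in replicate 1 only had a median value of 0.710, and the 26 found in the library labelled male replicate 2 only had 0.590, where the 107 shared ones had 1.37 in replicate 1 and 1.09 in replicate 2. Over all peaks of a library the median was 0.657 in replicate 1 and 0.651 in replicate 2. The 32 regions of the Nfix locus found in replicate 1 only were higher, with a median of 1.04 and up to 1.67. A base with an FDR under 0.05 lay in the other library in 11 of those 104 regions and in 8 of those 26. Of the 237 regions 164 were distal, that is, more than 1 kb from any start of a protein-coding gene, and 74 of these had a peak in both libraries. This was 45.1% of the distal regions, where it was 39.2% over the genome.

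**Figure D2:**
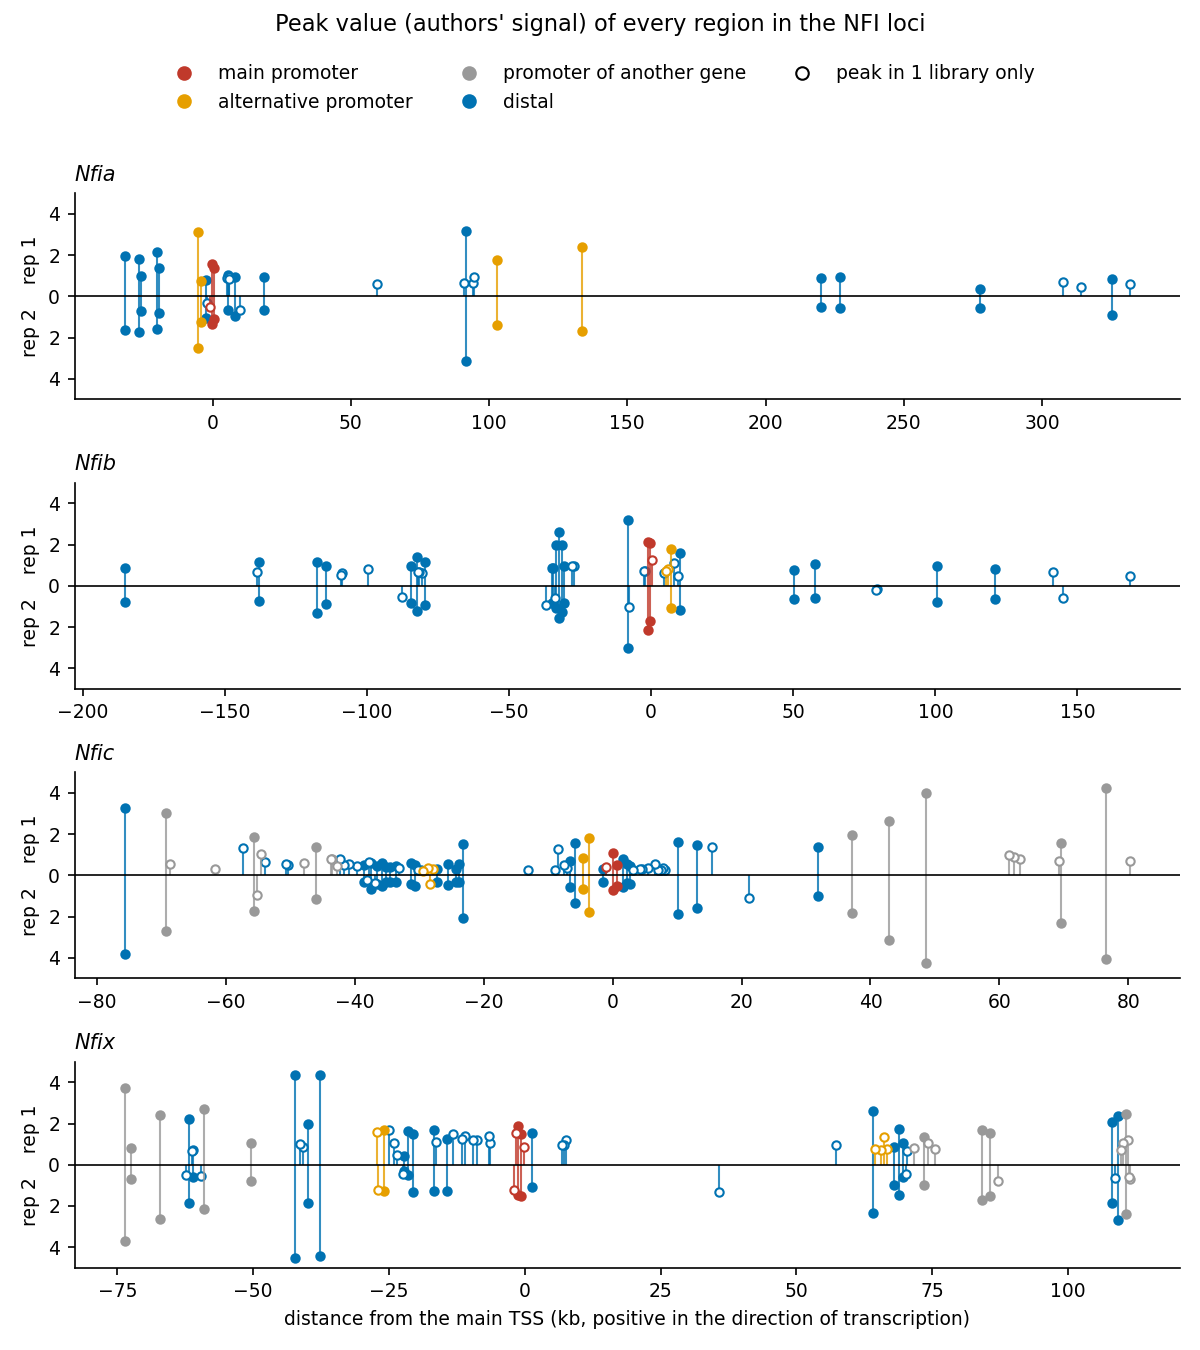
Peak value (authors' signal) of each of the 237 regions against distance in kb from the main TSS, positive in the direction of transcription, with replicate 1 upward and replicate 2 downward, coloured by class and open where only 1 library had a peak. The distal regions spread along Nfia and Nfib, form low runs around Nfic, and reach their highest values in a pair upstream of Nfix.

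All 4 loci had at least 1 shared distal region, as did 75.0% of all genes, and each had many. Nfic had 24, Nfib 19, Nfix 17 and Nfia 14, where the median gene had 2 and 95% of genes had at most 7. With the authors' shorter peak list the 74 became 33, and 44 where peaks had to overlap by 50% of both lengths. The counts of Nfic, Nfib, Nfix and Nfia stood at percentiles 99.9, 99.8, 99.7 and 99.3 of all genes in that order. Long genes offer more room, and among the 200 genes nearest in length the percentiles were 100 for Nfic, 98.25 for Nfib, 100 for Nfix and 95.5 for Nfia. Per 100 kb of locus there were 15.1 in Nfic, 8.48 in Nfix, 3.69 in Nfib and 3.14 in Nfia, where the median gene had 1.29 and 95% of genes had at most 4.85. By this density Nfic stood at percentile 99.9, Nfix at 99.1, Nfib at 88.3 and Nfia at 84.2 of all genes. The value at which a peak was called was not constant, so counts of different loci need not rest on the same limit. In the Nfic locus a distal region of replicate 1 with 0.360 had a lowest log10 FDR of -3.26, and one with 1.39 had -2.89. Of the 24 Nfic regions 18 had a mean value under 0.7. The shorter list gave 7 for Nfic, 7 for Nfib, 8 for Nfia and 11 for Nfix.

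**Figure D3:**
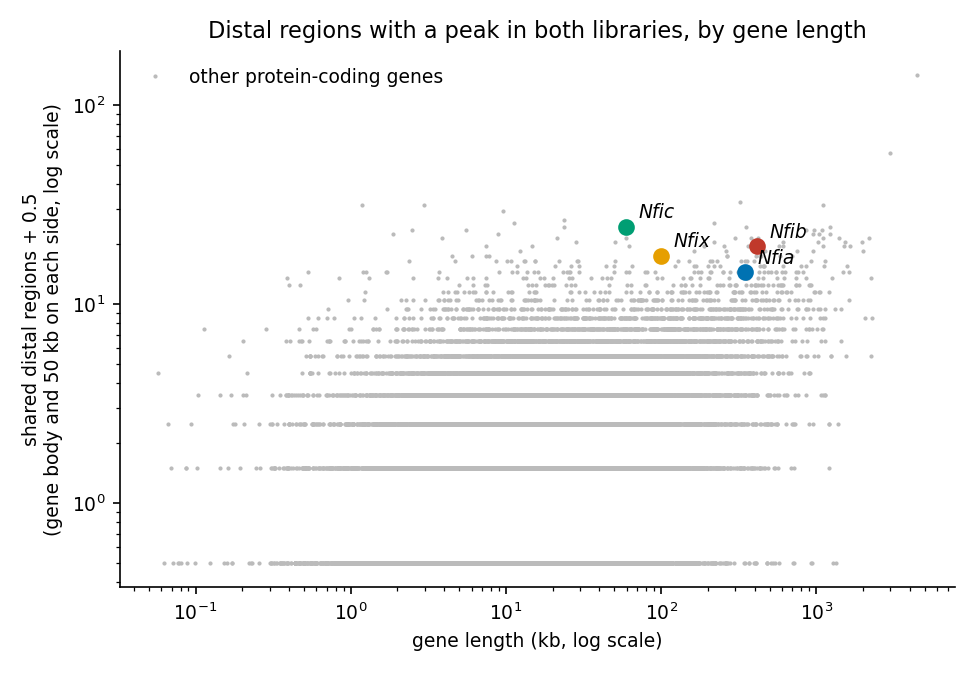
Shared distal regions plus 0.5 against gene length in kb, both on log scales, with each NFI gene as a coloured point and the other protein-coding genes in grey. The NFI genes, at 14 to 24 regions, lie along the upper edge of the cloud, and Nfic does so at 59.45 kb.

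Nfia (ENSMUSG00000028565.18, mm10 chr4:97772734-98118874, plus strand) had 24 distal regions in replicate 1 and 16 in replicate 2. The strongest of the 14 shared ones was a single intronic region 91.5 kb inside the gene, with 3.17 in replicate 1 and 3.12 in replicate 2, close to each other and above the main promoter in both; 330 of the 31276 shared distal regions of the genome were stronger. The 4 next by mean value lay 19.5 to 31.7 kb upstream, in introns of E130114P18Rik, with 1.36 to 2.16 in replicate 1 and 0.793 to 1.74 in replicate 2. The others had lower means, though some exceeded the last of those 4 in replicate 2, and they reached 325.3 kb from the main start.

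The intronic region is shown because of all shared regions of the 4 loci it held the only complete NFI site with a footprint over its middle in both libraries. Its central 300 bases are given (mm10, chr4:97868981-97869280, plus strand), capitals marking bases in footprints of both libraries, followed by the site itself with the NFI match in capitals (chr4:97869245-97869287, plus strand):
Nfia intronic region: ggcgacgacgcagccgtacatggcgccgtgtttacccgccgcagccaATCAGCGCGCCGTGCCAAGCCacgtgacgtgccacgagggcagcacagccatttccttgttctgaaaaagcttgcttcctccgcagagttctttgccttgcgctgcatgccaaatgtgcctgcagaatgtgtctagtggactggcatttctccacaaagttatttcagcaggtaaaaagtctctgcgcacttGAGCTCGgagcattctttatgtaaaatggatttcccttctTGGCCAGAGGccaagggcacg
Nfia site: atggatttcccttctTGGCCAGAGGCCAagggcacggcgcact
The whole region held 5 footprints shared by both libraries. One of them, of 25 bases in replicate 1 and 21 in replicate 2, covered another TTGGC, which reads GCCAA on the printed strand, in the first block of capitals.

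Nfib (ENSMUSG00000008575.17, mm10 chr4:82290173-82705750, minus strand) had 35 distal regions in replicate 1 and 26 in replicate 2, and all 19 shared ones lay in its own introns. The strongest was 8.0 kb upstream of the main start, inside the long transcript that begins far upstream, with 3.21 in replicate 1 and 3.0 in replicate 2. A group of 6 regions followed 30.8 to 34.9 kb upstream, with 0.855 to 2.63 in replicate 1, 0.838 to 1.55 in replicate 2 and 9 shared footprints. The 3 strongest of that group were each higher in replicate 1, at 2.63 against 1.55, 1.99 against 1.28, and 1.97 against 1.07 in replicate 2. Outside these, 12 regions were scattered from 185.1 kb upstream to 120.9 kb downstream and did not exceed 1.60 in replicate 1 or 1.33 in replicate 2.

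The strongest Nfib region is shown because its base composition is that of a CpG island, with 72.1% G and C and 0.883 of the CpG count that its composition would give, although no start of a protein-coding gene lay within 1 kb. The central 300 bases are given (mm10, chr4:82513201-82513500, plus strand), with bases in footprints of both libraries in capitals:
Nfib upstream region: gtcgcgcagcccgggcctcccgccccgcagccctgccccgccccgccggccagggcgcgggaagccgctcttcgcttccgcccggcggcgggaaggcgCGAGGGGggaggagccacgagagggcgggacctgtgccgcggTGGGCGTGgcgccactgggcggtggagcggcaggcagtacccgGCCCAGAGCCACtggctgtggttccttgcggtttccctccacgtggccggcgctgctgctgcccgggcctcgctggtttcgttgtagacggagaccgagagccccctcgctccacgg
It held 5 matches to GGGCGG on either strand in these bases and none of them touched a footprint of both libraries.

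Nfic (ENSMUSG00000055053.18, mm10 chr10:81396186-81455635, minus strand) had 51 distal regions in replicate 1 and 27 in replicate 2. Most of the 24 shared ones had low values, 18 of them with a mean value under 0.7, and their median was 0.502. A run of 14 lay 23.2 to 38.5 kb upstream, with 0.304 to 1.51 in replicate 1 and 0.316 to 2.06 in replicate 2. Its part from 33.6 to 38.5 kb lay in the neighbouring gene Celf5, and its regions at 30.7 and 31.3 kb lay between genes. A run of 6 lay on both sides of the main start. The highest value, 3.25 in replicate 1 and 3.81 in replicate 2, was 75.7 kb upstream in the UTR of Gna15, which codes for a G protein alpha subunit. Inside Nfic itself the highest mean was that of an intronic region with 1.51 in replicate 1 and 2.06 in replicate 2. Its range overlapped those of other intronic regions, of which one had 1.63 and 1.86 and another 1.55 and 1.35.

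That intronic region is shown whole because a long footprint, 39 bases in replicate 1 and 42 in replicate 2, covered its middle (mm10, chr10:81450241-81450480, plus strand, capitals as before):
Nfic intronic region: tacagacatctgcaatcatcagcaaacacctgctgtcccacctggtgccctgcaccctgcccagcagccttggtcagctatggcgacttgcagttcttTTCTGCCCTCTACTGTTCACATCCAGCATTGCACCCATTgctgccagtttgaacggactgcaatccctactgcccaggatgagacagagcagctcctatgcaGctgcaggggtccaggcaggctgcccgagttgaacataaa
The protected stretch is the first block of capitals and matched none of the motifs searched at every base. Near matches were not counted. Only 1 other position of this region was in a footprint of both libraries.

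Nfix (ENSMUSG00000001911.16, mm10 chr8:84699876-84800344, minus strand) had 36 distal regions in replicate 1 and 23 in replicate 2, and the 17 shared ones were the strongest of the family, with a median of 1.46. A pair of regions exceeded all others in the 4 loci. One, 42.3 kb upstream in the UTR of Dand5, a secreted inhibitor of Nodal and BMP signals, had 4.37 in replicate 1 and 4.54 in replicate 2. The other, 37.7 kb upstream between genes, had 4.36 and 4.42. Only 79 and 89 of the 31276 shared distal regions of the genome were stronger than these. In the gene body the highest was an intronic region 64.0 kb from the main start, with 2.61 in replicate 1 and 2.34 in replicate 2.

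Both upstream regions are shown for their footprints. The intergenic one is given whole with bases in footprints of both libraries in capitals (mm10, chr8:84810941-84811180, plus strand), and of the other only the match to the consensus of CTCF, the insulator protein, in capitals with its flanks (chr8:84815722-84815751, minus strand):
Nfix upstream region: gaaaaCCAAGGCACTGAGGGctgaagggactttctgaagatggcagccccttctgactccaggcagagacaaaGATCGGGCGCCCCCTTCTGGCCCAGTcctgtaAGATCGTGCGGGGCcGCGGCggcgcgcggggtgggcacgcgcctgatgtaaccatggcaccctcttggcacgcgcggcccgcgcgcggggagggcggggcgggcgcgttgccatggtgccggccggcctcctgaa
Nfix CTCF match: cgcttttagCCACTAGGTGGCaccgcgtcc
The CTCF match lay inside a footprint of 49 bases with the same first and last base in both libraries, the longest of the 4 loci. The intergenic region held 3 shared footprints, the longest of 29 bases in replicate 1 and 26 in replicate 2, and its TTGGC arm touched none of them.

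Of the 74 shared distal regions 73 had values within 2-fold of each other in the libraries, and 57 (77.0%) were higher in replicate 1, as were 61.4% of all shared distal regions. The exception was an intronic region of Nfix 21.4 kb upstream of the main start, with 1.62 in replicate 1, while the library labelled male replicate 2 had 0.483. Summed over all distal regions of a locus, Nfix had 52.9 in replicate 1 and 32.8 in replicate 2, Nfib 36.7 and 24.0, Nfic 33.6 and 20.99, and Nfia 25.4 and 16.4. Nfix was highest and Nfia lowest in both libraries.

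**Figure D4:**
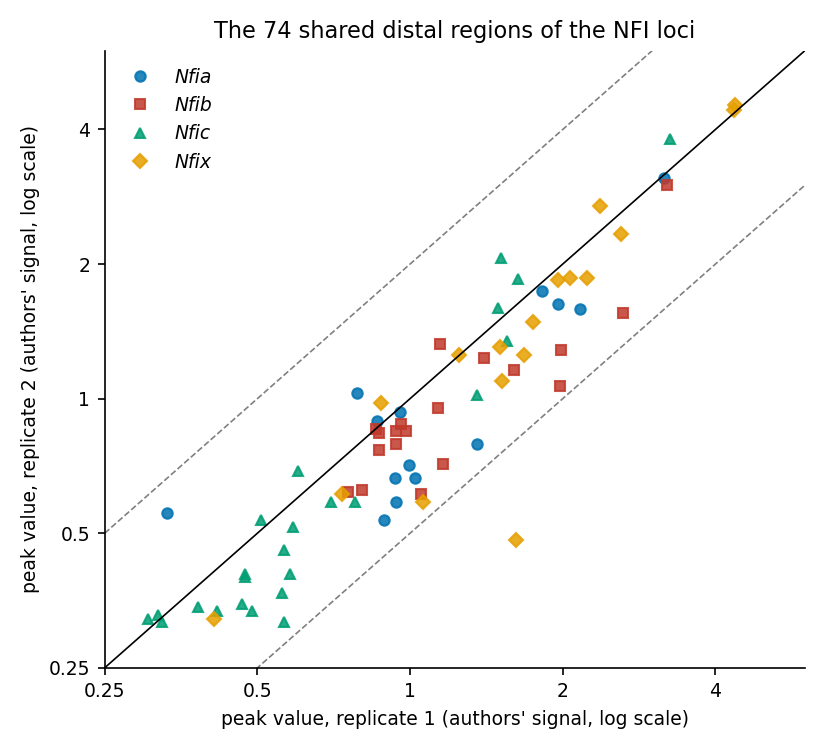
Peak value in replicate 2 against replicate 1 for the 74 shared distal regions, on log scales, coloured by gene, with a solid line at equal values and dashed lines at 2-fold. All but 1 lie between the dashed lines, Nfic regions gather under 0.7 and the pair upstream of Nfix stands above 4 in both libraries.

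Footprints were most numerous in the loci of Nfix and Nfic. Nfix had 214 footprints in replicate 1 and 86 in replicate 2, of which 44 were shared, and Nfic had 214 and 120 with 38 shared. Nfib had 120 and 81 with 33 shared, and Nfia 78 and 70 with 28 shared. Not all lay in called peaks, which held 538 of 626 in replicate 1 and 329 of 357 in replicate 2. Over the genome they held 190264 of 223251 and 150711 of 170016. Of all footprints in the 4 loci 24.4% of those in replicate 1 and 42.3% of those in replicate 2 overlapped one in the other library, where 30.0% and 39.4% of all footprints of the genome did. Among the shared distal regions 42 of 74 (56.8%) held a shared footprint, against 52.9% of all shared distal regions. Shared regions of the Nfic locus held 36 shared footprints, 12 of them at promoters of other genes. Those of the Nfix locus held 43, of which 13 were at promoters of other genes.

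The footprint count differed between the libraries most in Nfix, 2.49-fold, and least in Nfia, 1.11-fold, around the 1.31-fold of the whole lists. The share of bases with an FDR under 0.05 was 24.6% of the Nfic locus in replicate 1 and 11.7% in replicate 2. It was 13.3% and 6.78% in Nfix, 3.10% and 1.98% in Nfib, and 2.49% and 2.57% in Nfia, where the median gene had 2.12% on average over the libraries. Nfic and Nfix lie close to other genes, and the Nfic locus held 8 and the Nfix locus 9 shared regions at promoters of other genes. How far these regions bear on the FDR shares was not tested.

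Shared footprints of at least 15 bases numbered 11 in the Nfic locus, 8 in that of Nfix, 2 in that of Nfia and 1 in that of Nfib. In the Nfic locus only the one in the printed intronic region lay in Nfic itself. The others lay at promoters of Hmg20b, Fzr1, Dohh, Gm48552 and Celf5, in UTRs of Gna15 and Smim24, or outside peaks. In the Nfix locus some lay between genes, in UTRs of Dand5 and Gadd45gip1 or at the Calr promoter. After the 49 bases at the CTCF match near Nfix the longest was the one in the UTR of Gna15, of 42 bases in replicate 1 and 43 in replicate 2. In introns of E130114P18Rik, 26.5 kb upstream of Nfia, a footprint had 36 bases in replicate 1 and 33 in replicate 2. The only long one of Nfib, of 21 bases in replicate 1 and 18 in replicate 2, lay at its main promoter.

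Whether the NFI loci carry the binding site of their own products more often than other loci was examined in the middle 150 bases of each shared distal region, on both strands. A complete site or a single TTGGC arm was found in 30 of 74 regions, 40.5% (exact 95% interval 29.3 to 52.6, counting error only), against 34.8% of all 31276 shared distal regions, a share inside that interval. By gene the arm was in 5 of 14 regions of Nfia, 10 of 19 of Nfib, 8 of 24 of Nfic and 7 of 17 of Nfix. The complete site, whose arms can themselves be read as single arms when a T precedes them, was in 1 of 74, against 1.83% of all.

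Over the whole width of the 107 shared regions of any class 2 held a complete site (1.87%), against 2.5% of 50949. The first is the Nfia site printed above. The second lies 185.1 kb upstream of the Nfib main start (mm10, chr4:82690408-82690450, plus strand, NFI match in capitals) in a region with 0.869 in replicate 1 and 0.767 in replicate 2:
Nfib site: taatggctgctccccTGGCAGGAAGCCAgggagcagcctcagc
Its middle base was in a footprint of replicate 2 only, while over the genome 29.7% of complete sites in shared regions had a middle base in a footprint of both libraries.

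Of the other motifs, GGGCGG was found in 13 of 74 regions, 17.6% (9.70 to 28.2), against 8.20% of all, a share below that interval. Of these 13 regions 6 were of Nfic and 3 of Nfix, and the median G and C content was 58.5% in Nfic and 59.0% in Nfix, against 52.4% in Nfib and 53.2% in Nfia. The CTCF consensus was in 2 of 74 regions, 2.70% (0.329 to 9.42), both of Nfix, against 8.63% of all. The AP-1 motif TGANTCA was in 2 of 74 against 5.03%, and the E-boxes CAGATG and CAGCTG in 9 and 12 of 74 against 18.9% and 15.8%. No region held the SOX motif ACAATG, an upper limit of 4.86%, against 6.37% of all, or the POU motif, with the same limit, against 2.18%. The MEF2 and LHX motifs were each in 1 of 74.

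**Figure D5:**
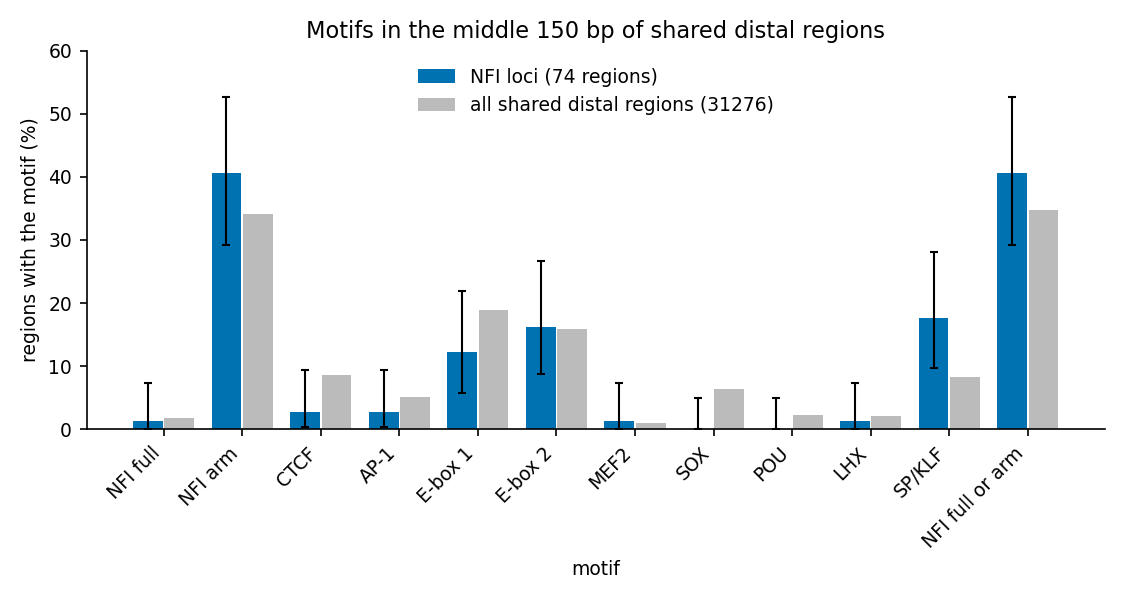
Percentage of shared distal regions with each motif in their middle 150 bases, for the 74 regions of the NFI loci in blue with exact 95% intervals and all 31276 in grey; E-box 1 is CAGATG and E-box 2 CAGCTG. The shares of NFI sites, 40.5% for the single arm, lie near those of all regions, and GGGCGG is the motif whose interval lies above the share of all regions.

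Several neighbouring promoters were stronger than those of the NFI genes. Of 11 protein-coding neighbours with a start in the Nfic locus 7 had a main promoter peak in both libraries, where 59.0% of all protein-coding genes did. The highest were Hmg20b, of a corepressor complex, with 4.24 in replicate 1 and 4.06 in replicate 2, and Fzr1, an activator of the anaphase-promoting complex, with 4.00 and 4.25. Ncln, Dohh, Mfsd12, Gm48552 and the RNA-binding Celf5 were the others, with 1.55 to 3.02 in replicate 1. 4930404N11Rik had a peak in replicate 1 only, and Gm48551, Smim24 and S1pr4 had none.

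In the Nfix locus 7 of 9 neighbours had a main promoter peak in both libraries, against the same 59.0% of all genes. The highest was Calr, a chaperone of the endoplasmic reticulum, with 3.72 in replicate 1 and 3.67 in replicate 2. Gadd45gip1, Ier2, Trmt1 and Nacc1 had 1.53 to 2.70 in replicate 1, and Dand5 had 1.04 and 0.806. Lyl1, a blood cell factor inside the Nfix gene, had 0.806 in replicate 1 only, and G430095P16Rik, also inside it, had none. Nfib had no such neighbour, and the main start of E130114P18Rik, the only one of Nfia, had no peak. Another E130114P18Rik transcript starts in the window of the Nfia main promoter, which had peaks in both libraries.

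The genes most like each NFI gene were found among all genes as the nearest in length, number of shared distal regions, summed distal value and main promoter value in each library, each z-scored on the log2 scale, over 2 libraries and with no test. For Nfia they were Gabbr2, a GABA-B receptor subunit, with 14 shared distal regions (distance 0.162), and Syt16 with 14 (0.283). For Nfib they were Sorcs2, a sorting receptor, with 21 (0.165) and Fam172a with 18 (0.247). For Nfix, Sept9 was among them with 15 (0.644), and for Nfic they were the postsynaptic scaffold gene Shank1 with 16 (0.632) and Psd2 with 15 (0.665). Within the family Nfia and Nfib were nearest each other (0.647) and Nfib and Nfic farthest apart (1.59).

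A list of 24 genes known as partners or targets of NFI proteins or as marks of the glia they promote was set beside the family. Main promoters had a peak in both libraries in 15 of 24 (62.5%), near the 59.0% of all genes, and the median number of shared distal regions was 3.5, against 18 for the NFI genes and 2 for all genes. The highest were Ephb1, an ephrin receptor, with 17, the neural POU factor Pou3f2 with 13, Zbtb20, a regulator of hippocampal identity, with 10, and the astrocyte enzyme Aldh1l1 with 9. Ezh2, a histone methyltransferase, the receptor subunit gene Gabra6, the astrocyte filament gene Gfap and Glul, glutamine synthetase, had none. Gfap and Gabra6 had no main promoter peak either, while Ezh2 had 3.34 in replicate 1 and 3.03 in replicate 2 and Glul 2.80 and 2.28.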

How the data were processed

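DNase-seq peaks, footprints and FDR runs of 2 libraries were analysed, as 1 group of 2 replicates. Per the file headers the assembly is mm10 and each list was made from 1 library; no source used here names the aligner, the callers or their filters. Peak values are the signal that the authors deposited in the longer of their lists. The deposited p-value type column holds an FDR for each run of bases, listed under 0.05. The depth is unknown.

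Gene models were those of GENCODE M21, and bases were read from GRCm38.p6, which has the mm10 coordinates and not the CAST alleles. Python 3.11.15 with numpy 2.4.6, pandas 2.3.3, scipy 1.17.1, pysam 0.24.0 and matplotlib 3.10.9 and samtools 1.23.1 were used. Peaks and footprints were shared at an overlap of at least 1 bp, and the counting code was tested on simulated data. Motif windows held 150 bp around the middle of a region. Motifs had to match their consensus at every base, so near matches were not counted. With 1 group there is no test of a condition, so counts stand beside those of all genes or regions. Intervals are exact (Clopper-Pearson).

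The members, lists and motifs were chosen with earlier results of these data known. Named genes are the members, genes starting in their loci, for each member the 5 strongest shared distal regions, complete NFI sites in footprints of both libraries and the 2 most like genes, and the 4 highest and the lowest of the 24 listed genes, the lowest being tied at 0; some genes that this rule names are not reported here. Groups of neighbouring regions and the region that differed over 2-fold were picked after their values were seen. The alternatives were the shorter peak list, other windows, flanks and overlaps, a stricter FDR, and each library alone.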

Additional observations from a re-analysis of the deposited data

How the results depend on the processing

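Of 31 alternative settings over the 6 main results 22 stayed within 1.5 times the count, the interval or the SD. Some of these could not have moved and say nothing on robustness. A main promoter with a peak in both libraries also has one in each library alone and in a wider window. With n = 2, the FDR share of each single library always lies within the SD of their mean. All 4 main promoters had a peak in both libraries with the shorter peak list, with windows of 2.5 or 0.5 kb around the TSS and in each library alone, and alternative promoters with a peak numbered 5 with the shorter list, 6 with 0.5 kb, and 7 to 8 in single libraries. Shared distal regions fell to 33 with the shorter list and to 44 with a reciprocal overlap of 50%, and numbered 92 to 146 in single libraries. They numbered 59 with a TSS window of 2.5 kb, where Nfib had 19, Nfic 16, Nfia 13 and Nfix 11, so that Nfib led. With the shorter list Nfix had 11, Nfia 8, Nfib 7 and Nfic 7, where the median gene had 1 and 95% of genes had at most 4, so that the order of the genes changed while all 4 remained above percentile 99.2. Within the gene bodies alone Nfib had 19, Nfic 13, Nfix 10 and Nfia 9 shared distal regions. Shared footprints numbered 92 with a flank of 10 kb and 84 in the gene bodies alone, and 357 to 626 were found in single libraries. An NFI motif was in 63.5% of regions in windows of 300 bp, where 54.2% of all shared distal regions had one, and in 38.04% to 39.0% in single libraries. The share of bases under the FDR limit was 5.56 ± 2.09% (SD, n = 2) of the 4 loci together, 2.998% at an FDR of 0.001 and 4.09% to 7.04% in single libraries. No paired analysis was possible because the libraries form 1 group. The depth being unknown, a region without a peak may be one that was not detectable.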
